A study of Mus musculus with 6 samples.

Results

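The immediate early genes Egr1, Egr2, Egr3, Fos, Fosb, Jun, Junb, Ier2, Ier3 and Dusp1 were followed in mouse dendritic cells that did or did not carry the neutrophil surface protein Ly6G. Every probe set whose platform annotation gave exactly 1 gene symbol, that of 1 of these 10 genes, was taken, out of 18194 genes named in this way. This gave 13 of the 45101 probe sets, with 2 each for Egr2, Egr3 and Jun and 1 for each other gene, and all 13 passed the filter on low signals. Bone marrow of C57BL/6 mice was cultured with GM-CSF at 10 ng/ml, a growth factor that yields dendritic cells, and cells positive for CD11c and MHC II were sorted on day 6 as Ly6G+ DC and Ly6G- DC. Both populations came out of the same cultures at the same sort, and each had 3 samples on an Affymetrix Mouse430_2 array, numbered 1 to 3. The labels used here give neither the age or sex of the mice nor which samples shared a culture, so p-values measure the spread between samples, which may be technical.

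Immediate early genes are transcribed within minutes of a signal from pre-assembled factors such as SRF and CREB, without new protein synthesis, and their mRNAs are short-lived. In myeloid cells they are known to respond to growth factors, microbial products, adhesion and stress through the MAP kinases. Egr proteins are zinc finger transcription factors, Fos and Jun proteins pair to form the transcription factor AP-1, and Dusp1 removes phosphate from p38 and JNK and so ends the signal.

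The sort and the arrays were checked before the members were compared. Itgax, which encodes CD11c, had a mean signal of 5301 ± 2578 in the Ly6G+ and 7050 ± 2239 in the Ly6G- samples (SD, n = 3), and H2-Ab1, an MHC class II chain, of 12870 ± 3163 and 18870 ± 2422. Of 18 neutrophil markers tested, 18 had a positive log2 fold change for Ly6G+ over Ly6G- DC, beside 44.3% of all 13262 genes, and 17 lay wholly higher, beside 4.95%. Their signals summed to between 93386 and 127420 on Ly6G+ arrays and between 13421 and 32590 on Ly6G- arrays. Of 14 dendritic cell markers tested, 14 had a negative log2 fold change and 10 lay wholly lower, beside 7.86% of all genes, with summed signals of 95401 to 186460 and 151940 to 350730. Of 9 monocyte markers tested, 8 had a positive log2 fold change and 5 lay wholly higher, with a median of 0.86 and summed signals of 17840 to 24348 and 6473 to 16511. Of 6 mast cell, basophil and eosinophil markers tested, 5 were positive and 2, Prg2 and Epx, lay wholly higher, with a median of 0.86 and summed signals of 1956 to 3739 and 1062 to 1382. Log2 fold changes were positive for 5 of 9 macrophage, 0 of 4 T and NK lymphocyte, 0 of 6 B lymphocyte and 1 of 3 erythroid markers tested. No tested marker of these lists was at 0. The lists were written with earlier results of these data known, so their counts are no independent check of the sort. Ly6g itself was not named in the annotation used and is not analysed here. The hybridization controls, bacterial and phage transcripts spiked in before hybridization, split the arrays across the groups, a split made after these controls were seen. Ly6G+ DC 1, Ly6G+ DC 3 and Ly6G- DC 1 had mean control signals of 1529 to 2039 (the low side). Ly6G+ DC 2, Ly6G- DC 2 and Ly6G- DC 3 had 6688 to 12842 (the high side). For Actb the 3' probe set over the 5' one, a ratio that is raised in degraded or shortened RNA, gave 1.17 to 1.49 on the low and 3.98 to 6.85 on the high side. Titles also give number 1 of each group another array name (Mouse430_2_2) than numbers 2 and 3. Member differences below are therefore also given within the sides or with the side as a block where that moves them, and those of other genes where it turns a sign or a count.

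The promoters of 3 members are shown because they carry the sequence elements for which the class is known. RefSeq (GRCm38.p6) gave promoter windows for 7 of the 10 genes, and the 250 bases before the transcript start were searched on both strands. Fos and Dusp1 had 1 window each, and for Egr2 the first listed of its 5 windows with both elements is printed. The regions are chr12:85473640-85473889 (plus strand) for Fos, chr17:26508473-26508722 (minus strand) for Dusp1 and chr10:67537619-67537868 (plus strand) for Egr2, each written 5' to 3' along the gene. Capitals mark TGACG or its reverse complement, the core of the cAMP response element (CRE) bound by CREB, in all 3. They also mark TATAAA, the TATA box, in Fos, the full element TGACGTCA, which contains TGACG on both strands, in Dusp1, and the CArG box, the site of SRF, in Egr2.
Fos: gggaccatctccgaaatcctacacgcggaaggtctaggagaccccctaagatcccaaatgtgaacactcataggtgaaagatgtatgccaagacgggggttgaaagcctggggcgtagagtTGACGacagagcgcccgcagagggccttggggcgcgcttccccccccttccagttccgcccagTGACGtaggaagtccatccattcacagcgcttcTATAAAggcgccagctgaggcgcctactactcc
Dusp1: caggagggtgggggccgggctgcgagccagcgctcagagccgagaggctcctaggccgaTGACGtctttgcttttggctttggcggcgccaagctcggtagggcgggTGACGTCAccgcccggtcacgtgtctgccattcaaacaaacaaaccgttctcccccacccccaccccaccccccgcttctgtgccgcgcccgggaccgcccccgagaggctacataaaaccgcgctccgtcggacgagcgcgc
Egr2: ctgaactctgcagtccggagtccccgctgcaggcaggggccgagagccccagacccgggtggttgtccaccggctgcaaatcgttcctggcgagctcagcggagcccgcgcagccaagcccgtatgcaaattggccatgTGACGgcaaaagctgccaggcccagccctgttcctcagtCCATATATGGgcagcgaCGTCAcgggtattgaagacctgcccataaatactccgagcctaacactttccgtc
TGACG lay in the windows of 5 of the 7 genes (Fos, Fosb, Junb, Egr2 and Dusp1) and in 17.8% of all 32851 windows of this length. Counts of genes and shares of windows are different units, as Egr2 had 5 of the 11 member windows. Elements further upstream lay outside the search. The full CRE was in the window of Dusp1, 143 to 136 bases before the start, and in 1.55% of all windows. The CArG box was in the window of Egr2, 72 to 63 bases before the start, and in 1.47% of all windows, and TATAAA was in that of Fos and in 12.4%. GCGGGGGCG, a form of the site of Egr proteins themselves, was found in Fosb, where GCGGGGGCG or GCGTGGGCG lay in 3.06% of all windows. TGACTCA or TGAGTCA, the site of AP-1, was found in 0 of the 7 and in 4.46% of all. These matches describe the letters of the windows and were not set against the expression values.

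Of the 13 probe sets, 12 had a positive log2 fold change, as Ly6G+ DC over Ly6G- DC on the log2(signal + 16) scale used for every fold change below. The median was 0.82, beside -0.06 for all 28254 probe sets tested, of which 45% were positive. Signals did not overlap between the groups for 4 members, Egr1, Fos, Dusp1 and Jun (1448694_at), all higher in Ly6G+ DC, where 4.49% of all probe sets tested lay wholly higher. None of the 13 lay wholly lower, beside 7.24% of all. By limma, 6 members of 5 genes (Egr1, Fos, both of Jun, Ier2 and Ier3) were higher at an unadjusted p under 0.05, beside 2.75% of all probe sets, and 0 were lower, beside 2.87%. After Benjamini-Hochberg adjustment over all probe sets, 0 of 13 members passed 0.05, as did 0% of all 28254 (smallest adjusted p = 0.165). This fit left out any pairing by culture, since the labels do not say which samples shared one. With same-numbered arrays as a block, 1 member, Egr1, passed by limma (adjusted p = 0.0407), beside 19 of all 28254. Probe sets of 1 gene share their RNA, so the 13 are not independent. Markers of neutrophils, of monocytes and of mast cells, basophils and eosinophils were also higher in Ly6G+ DC (summed signals above), and their part in the difference was not tested. In a sorted population, more cells with a transcript cannot be told apart from more of it per cell.

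**Figure D1:**
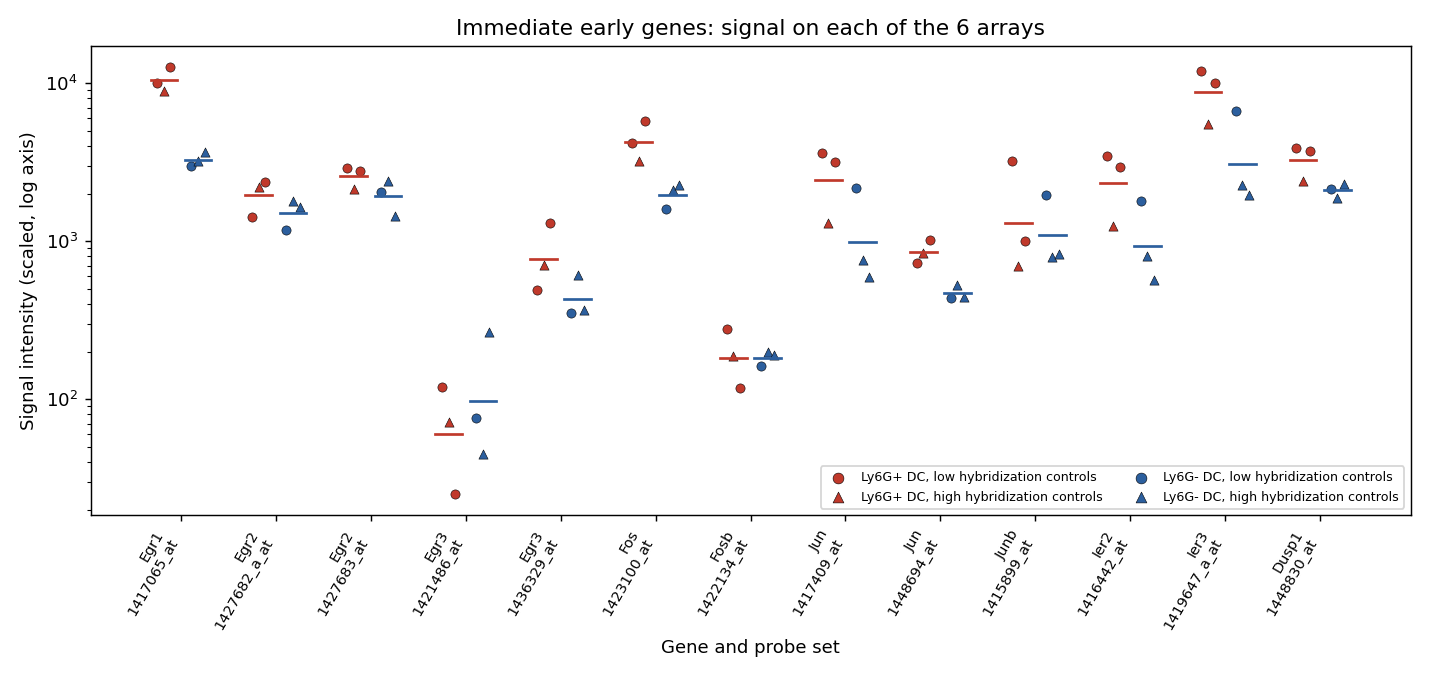
Signal intensity (scaled by the authors, log axis) of the 13 probe sets on the 6 arrays, with Ly6G+ DC in red, Ly6G- DC in blue, circles for arrays with low and triangles for arrays with high hybridization controls, and lines at geometric means of 3 arrays. Red points lie wholly above blue for Egr1, Fos, Dusp1 and Jun (1448694_at), while circles lie wholly above triangles for Jun (1417409_at), Junb, Ier2 and Ier3.

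Egr1 (1417065_at), a zinc finger factor induced by many stimuli, had the largest difference of the class with the group alone and with the side blocked. Ier3 was larger within the high side (1.39 against 1.38) and within the other array name (1.82 against 1.63). It was also larger when Ly6G+ DC 2 was left out (1.82 against 1.77). With Ly6G- DC 1 left out, Ier3 (2.05), Jun (1.84 at 1417409_at) and Ier2 (1.76) were all above Egr1 (1.60). In Ly6G+ DC 1, 2 and 3 its signals were 9966, 8970 and 12594, and in Ly6G- DC 1, 2 and 3 they were 2997, 3231 and 3648. The lowest Ly6G+ array thus stood far above the highest Ly6G- array, and the spread within a group was small beside the gap. The log2 fold change was 1.66 ± 0.31 (SE), a fold of 3.16 with a 95% interval of 0.97 to 2.35 on the log2 scale. By limma this had an unadjusted p of 2.93e-04, rank 20 of 28254, and an adjusted p of 0.413. Among low-side arrays the difference was 1.90 and among high-side arrays 1.38. Within the array name of number 1 it was 1.73, and within the other name 1.63. Its call depended on the block and on the number of features tested. Blocking on array name, limma's adjusted p was 0.0305, where 0.0743% of all probe sets passed, and blocking on side it was 0.0798. With 1 probe set per gene and the side blocked it was 0.0416, where 0.0679% of genes passed.

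The other Egr genes differed less. Egr2, which is known from macrophage and hindbrain development, had a pair of probe sets. Signals of 1427682_a_at were 1427, 2215 and 2362 (Ly6G+) against 1177, 1787 and 1651 (Ly6G-). Those of 1427683_at were 2895, 2132 and 2762 against 2056, 2411 and 1443. Groups overlapped on both, with log2 fold changes of 0.36 ± 0.32 and 0.41 ± 0.31 (SE) and intervals of -0.35 to 1.08 and -0.28 to 1.11. Egr3, a partner of Egr2 in restraining T cell activation, gave opposite signs on its probe sets. Probe set 1436329_at had 489, 709 and 1302 against 350, 609 and 365, an overlap of 1 array of each group, and a log2 fold change of 0.82 ± 0.40 (SE). Probe set 1421486_at had 119, 71.6 and 25.1 against 76.0, 45.1 and 267. It lay above the array's 40th percentile on 4 of 6 arrays, and its highest and lowest arrays were both number 3. Its log2 fold change of -0.57 ± 0.65 (SE) turned to 0.071 without Ly6G- DC 3. Limma's adjusted p-values were 0.836 to 0.888 for these 4 probe sets, with Egr2 at 0.861 and 0.852.

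Of the Fos genes, Fos separated the groups and Fosb did not. Fos (1423100_at), the partner of Jun proteins in AP-1, had signals of 4162, 3192 and 5775 in Ly6G+ DC against 1593, 2093 and 2249. Every Ly6G+ array was higher than every Ly6G- array, with the smallest gap between Ly6G+ DC 2 and Ly6G- DC 3, both on the high side. The log2 fold change was 1.11 ± 0.33 (SE; 95% interval 0.39 to 1.84), with an unadjusted p of 0.00652 and an adjusted p of 0.836 by limma. It was 1.61 within the low side and 0.55 within the high side. Fosb (1422134_at), a paralog that is induced with Fos in many cells, had 279, 187 and 117 against 162, 197 and 191. The Ly6G+ arrays held both its highest and its lowest value. Its log2 fold change was 0.01 ± 0.37 (SE) with a 95% interval of -0.82 to 0.83, and its adjusted p by limma was 0.998.

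Jun was measured by a pair of probe sets that differed in how they followed the arrays. On 1448694_at the signals were 727, 846 and 1018 in Ly6G+ DC against 438, 530 and 444. The groups did not overlap there, and the log2 fold change was 0.85 ± 0.28 (SE). On 1417409_at they were 3600, 1295 and 3161 against 2159, 762 and 594. Here Ly6G- DC 1 exceeded Ly6G+ DC 2, so the groups overlapped, and the 3 low-side arrays were all above the 3 high-side arrays. The log2 fold change was 1.29 ± 0.53 (SE) with the group alone and 0.78 ± 0.24 with the side blocked, with 0.64 within the low and 0.93 within the high side. Limma's adjusted p was 0.836 for both with the group alone and 0.743 for both with that block. Junb (1415899_at), which competes with Jun for AP-1 partners, had 3230, 695 and 1000 against 1957, 792 and 827. Its highest value in each group was on number 1 and groups overlapped widely, with a log2 fold change of 0.27 ± 0.56 (SE) and an adjusted p of 0.938 by limma. Junb turned to -0.17 ± 0.39 with the side as a block, and was -0.12 within the low and -0.22 within the high side.

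Ier2 and Ier3 had large group differences and overlapping groups. Ier2 (1416442_at), a small nuclear protein, had signals of 3475, 1249 and 2934 in Ly6G+ DC against 1783, 810 and 566. Ier3 (1419647_a_at), a stress-inducible protein that acts on cell survival, had 11947, 5518 and 10078 against 6700, 2257 and 1950. For each gene 1 array of each group crossed over, Ly6G- DC 1 above Ly6G+ DC 2. The log2 fold change of Ier2 was 1.31 ± 0.49 with the group alone and 0.85 ± 0.25 with the side blocked (SE). That of Ier3 was 1.49 ± 0.50 and 1.05 ± 0.24 in the same fits. Within the low and high sides Ier2 had 0.83 and 0.87, and Ier3 had 0.71 and 1.39. By limma their unadjusted p-values were 0.0235 and 0.0134 with the group alone and 0.00616 and 0.00129 with the block, and adjusted p-values were 0.836 for both, then 0.743 and 0.609.

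Dusp1 (1448830_at), the phosphatase that limits p38 and JNK, had signals of 3894, 2413 and 3718 in Ly6G+ DC against 2148, 1863 and 2292. The groups did not overlap, though Ly6G+ DC 2 was close to Ly6G- DC 3. The log2 fold change was 0.64 ± 0.31 (SE; 95% interval -0.04 to 1.32), with an adjusted p of 0.836 by limma. It was 0.82 within the low and 0.22 within the high side, on which Ly6G+ DC is a single array.

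**Figure D2:**
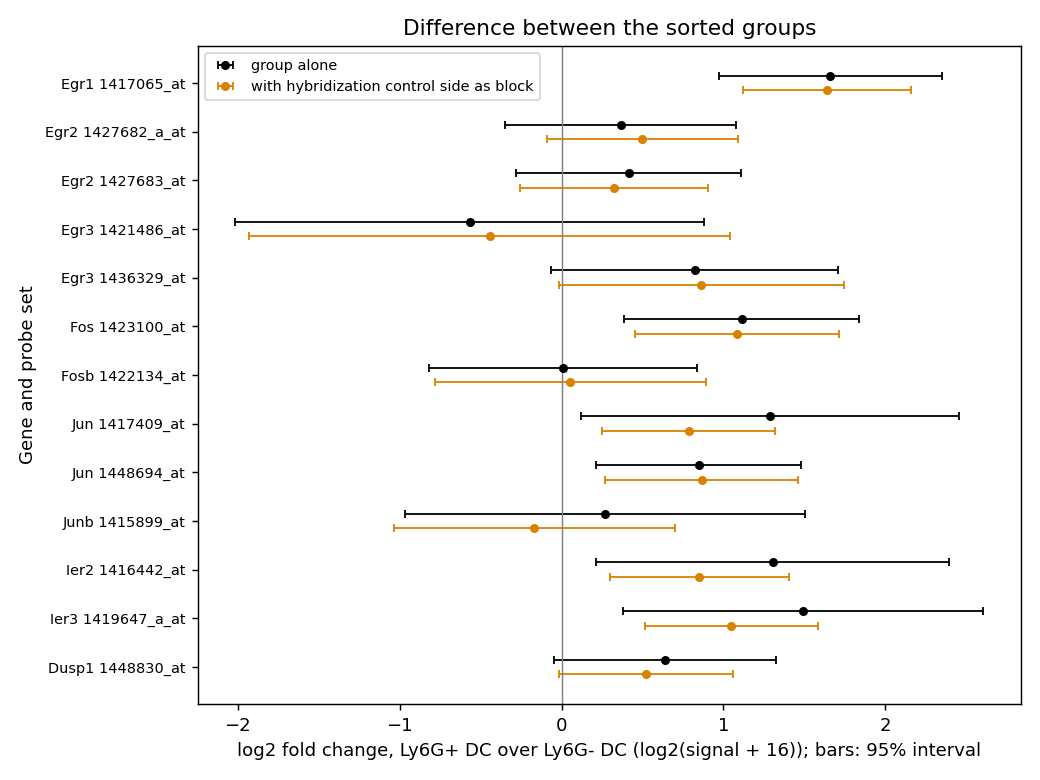
Log2 fold change of each probe set, Ly6G+ DC over Ly6G- DC on the log2(signal + 16) scale, with the group alone (black) and with array sides blocked (orange), points for estimates and bars for 95% intervals from limma. Intervals of Egr1, Fos, both Jun probe sets, Ier2 and Ier3 lie above 0 in both fits, and those of Jun (1417409_at), Ier2 and Ier3 are narrower with the block.

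The members differed in how far they moved with the array sides. In the fit with group and side together, Jun (1417409_at), Ier2 and Ier3 were lower on the high side, by limma at adjusted p-values of 0.0124, 0.0179 and 0.0174. The differences, high minus low, were -1.51 ± 0.24, -1.36 ± 0.25 and -1.33 ± 0.24 (SE), each larger in size than that member's group difference in the same fit. These 3 of 13 compare with 2.37% of all probe sets lower on the high side at that threshold, and 0 of 13 were higher there, beside 2.54% of all. Junb had -1.30 ± 0.39 and an adjusted p of 0.0867. Signals of these 4 lay wholly lower on the high side, as did 11.5% of all probe sets. Egr1, Fos and Jun (1448694_at) had -0.06 ± 0.23, -0.09 ± 0.28 and 0.06 ± 0.27, with adjusted p-values of 0.900 to 0.931. Dusp1 had -0.35 ± 0.24, and Egr2 0.40 ± 0.27 (1427682_a_at) and -0.27 ± 0.26 (1427683_at). Egr3 had 0.37 ± 0.67 (1421486_at) and 0.12 ± 0.40 (1436329_at), and Fosb 0.14 ± 0.38. Adjusted p-values of Dusp1, Egr2, Egr3 and Fosb were 0.424 to 0.899 by limma, which does not show that their sides are equal. The 3' to 5' ratio of Actb moved with the side, and its part in these values was not tested. The side calls moved with single arrays, as did those of all probe sets, of which 669 of 28254 were lower on the high side. With Ly6G+ DC 2 left out, 0 of these members passed, beside 50 of all probe sets. The same held for Ly6G- DC 1, beside 0, and for Ly6G- DC 2, beside 122. Without Ly6G+ DC 1, Jun and Ier3 passed, beside 209, and without Ly6G- DC 3 only Jun did, beside 208. Without Ly6G+ DC 3, Jun, Junb, Ier2 and Ier3 passed, beside 1783, and with no intensity trend 0 members did, beside 0.

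**Figure D3:**
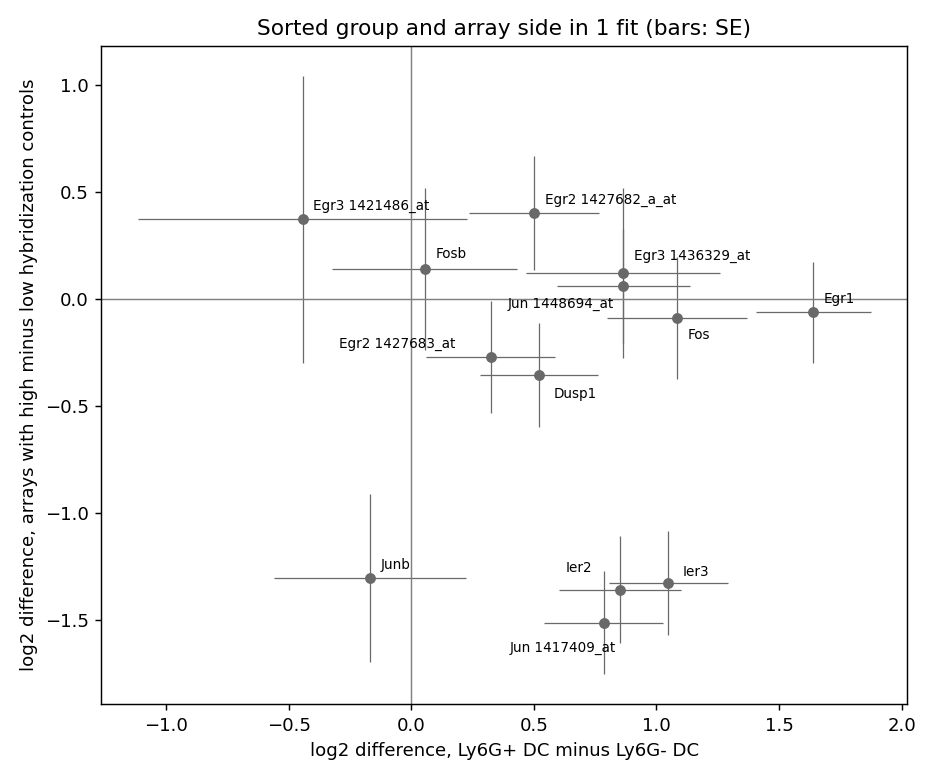
Log2 difference between sorted groups (x axis, Ly6G+ DC minus Ly6G- DC) against log2 difference between arrays with high and low hybridization controls (y axis, high minus low), both from 1 limma fit on log2(signal + 16), with SE as bars and a point for each of the 13 probe sets. Jun (1417409_at), Junb, Ier2 and Ier3 lie between -1.30 and -1.51 on the y axis, while Egr1, with 1.64 on the x axis, lies at -0.06.

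No array was extreme for every member. Ly6G+ DC 1 held the highest signal of 7 of the 13 probe sets and Ly6G+ DC 3 that of 5, and Ly6G- DC 3 held that of Egr3 (1421486_at). The lowest signal was on Ly6G- DC 1 for 5 and on Ly6G- DC 3 for 4. Averaged over the 13 on the log2 scale and centred on the mean of the 6 arrays, the class lay at 0.62, 0.03 and 0.47 on the Ly6G+ arrays, against -0.18, -0.46 and -0.47 for Ly6G- DC. Ly6G+ DC 2, on the high side, was thus the lowest of its group and Ly6G- DC 1, on the low side, the highest of its own. With the side blocked, 6 members were higher at an unadjusted p under 0.05 by limma, beside 3.4% of all probe sets, and 0 were lower, beside 3.22%. The difference was positive within both sides for 10 of 13 members, beside 25.7% of all probe sets tested. The exceptions were Junb, Fosb and Egr3 (1421486_at).

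Other immediate early genes had log2 fold changes of both signs. Of 38 on the list, 34 were tested, each by its brightest kept probe set, and 22 had positive and 12 negative log2 fold changes, with a median of 0.17 beside -0.07 for all genes. The median was 0.28 within the low side and -0.05 within the high side. Ly6G+ arrays lay wholly above for 9, beside 4.95% of all genes, and wholly below for 3, near the share of 7.86% of all genes. At an unadjusted p under 0.05 by limma, 8 were higher and 3 lower in Ly6G+ DC, beside 2.99% and 3.19% of all genes, and 0 passed the adjustment, as did 0% of all genes. The counts of 8 and 3 stood beside 778 and 811 of all 28254 probe sets, a unit other than genes. They moved to 10 and 0 with the common median, beside 1770 and 239 of all. They were 4 and 4 without Ly6G+ DC 1, where fewer of all were higher and 832 were lower. Without Ly6G+ DC 3 they were 5 and 0, beside 293 and 310 of all. Without Ly6G- DC 3 they were 4 and 0, beside 478 and 352. Leaving out Ly6G+ DC 2 gave 9 and 5, where more of all were higher and more were lower. Leaving out Ly6G- DC 1 gave 11 and 5, beside 2088 and 1843. Leaving out Ly6G- DC 2 gave 6 and 2, where fewer of all were higher and fewer were lower. Nfkbiz, an atypical IκB induced by Toll-like receptors, averaged 5576 ± 2128 against 1930 ± 243 (SD, n = 3), with a log2 fold change of 1.47 ± 0.34 (SE). Sgk1, a kinase, had 1.25 ± 0.39, and Klf10, a transcription factor induced by TGF-beta, had 0.80 ± 0.27. Gadd45b, which binds stress kinases upstream of p38 and JNK, was lower on all Ly6G+ arrays, at 2071, 2260 and 1464 against 3431, 3193 and 3655, with -0.84 ± 0.30. The other lower genes, named after their values were seen, were Dusp5 and Nr4a3, a nuclear receptor, the latter with -0.78 ± 0.31. Adjusted p-values of these genes were 0.768 for Nfkbiz and 0.836 for the rest.

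Feedback inhibitors, a list that shares Dusp5 and others with the one above, had 1 higher and 1 lower gene of 17 tested at an unadjusted p under 0.05 by limma, near the 2.99% and 3.19% of all genes. Dusp6, which acts on ERK in the cytoplasm, was higher, at 1120, 683 and 1933 against 411, 646 and 245, with a log2 fold change of 1.46 ± 0.45 (SE). Dusp5, which acts on ERK in the nucleus, was lower, at 1963, 2904 and 1462 against 3014, 4104 and 6785, with -1.10 ± 0.39. Groups did not overlap for either, though Ly6G+ DC 2 and Ly6G- DC 2 were close for Dusp6, and both had an adjusted p of 0.836 by limma. The lower count was 0 with the common median, where 239 of all 28254 probe sets were lower, against 811 under the authors' scaling. It was also 0 without Ly6G+ DC 3 (310 of all) and without Ly6G- DC 3 (352). Of 16 AP-1 dimer partners, Batf3, a factor of conventional dendritic cells, alone was below that level, with -0.93 ± 0.36, and no gene was higher, near the same shares of all genes. With Ly6G- DC 1 left out, 4 genes were higher and 3 lower, where 2088 and 1843 of all 28254 probe sets, a unit other than genes, were. With Ly6G+ DC 3 left out, 0 were, beside 293 and 310 of all, and with Ly6G- DC 3 left out 0, beside 478 and 352. The replicate block gave 4 higher and 1 lower, beside 1608 and 1346 of all. The array name block gave 3 and 1, beside 1581 and 1399.

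The signal chain upstream had 0 genes below an unadjusted p of 0.05 by limma with the group alone, where 2.99% of all genes were higher and 3.19% lower. This held for 13 tested regulators of the SRF, ternary complex and CREB type, with a median of -0.03, and for 18 tested genes of the MAP kinase cascade, with a median of 0.08. With the side blocked these medians were -0.15 and -0.15, so that of the MAP kinase cascade turned sign. That block left 0 genes of either list higher, beside 3.58% of all genes, and 2 lower, beside 3.51%. Both were regulators, named after their values were seen, Mkl1, a coactivator of SRF, with -0.99 ± 0.39 (SE; unadjusted p = 0.0277) and Crtc2, a coactivator of CREB, with -0.84 ± 0.36 (0.0406), and limma's adjusted p was 0.747 for each. With the common median, 2 genes of the MAP kinase cascade were higher, beside 1770 of all 28254 probe sets. Without Ly6G+ DC 1, 1 gene of each list was lower, beside 832 of all. Without Ly6G- DC 3, 1 regulator was lower, beside 352. Mkl2, another coactivator of SRF, had -0.35 ± 0.28 and Rps6ka3, a kinase that acts on CREB, 0.13 ± 0.29 (SE). Map2k1, the kinase of ERK, had 0.11 ± 0.40, and -0.20 ± 0.25 with the side blocked, and Mapkapk3, a target of p38, -0.21 ± 0.30. Of 11 heat shock chaperones tested, which respond to stress through another factor, 0 were below that level, with a median of 0.12. Without Ly6G- DC 1, 2 chaperones were higher and 1 lower, where 2088 and 1843 of all 28254 probe sets were. Hspa8 had -0.72 ± 0.60, and -0.18 ± 0.23 with the side blocked, and its signals followed the sides, with 10452 to 13723 on the low and 31353 to 45703 on the high side. Hsp90aa1 had 0.40 ± 0.40.

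**Figure D4:**
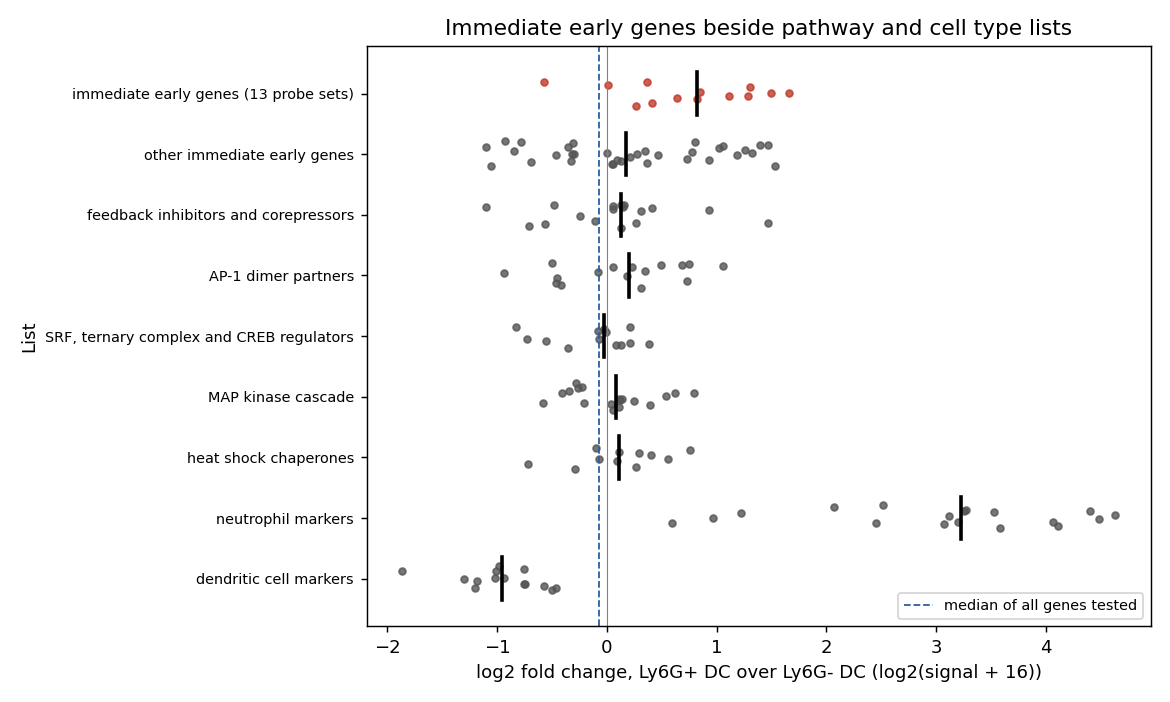
Log2 fold change, Ly6G+ DC over Ly6G- DC on the log2(signal + 16) scale, of the 13 immediate early probe sets (red) and of the tested genes of 8 other lists (grey, 1 point per gene), with black bars at list medians and a dashed line at the median of all genes, -0.07. The immediate early median is 0.82, the neutrophil markers lie at 3.23 and the dendritic cell markers at -0.96.

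The count of 6 members at an unadjusted p under 0.05 by limma was 3 when Ly6G+ DC 3 was left out and likewise 3 when Ly6G- DC 3 was, and the median of the class was 0.55 without Ly6G+ DC 3. Scaling each array to a common median moved the median of all probe sets from -0.06 to 0.24 and that of the class to 1.15. The class thus stood 0.89 above all probe sets under the authors' scaling and 0.91 under that one, and 0.73 after quantile normalization. It stood 0.52 above with side and array name blocked, and 0.55 without Ly6G+ DC 3. The split of all probe sets at an unadjusted p under 0.05 was 778 higher and 811 lower under the authors' scaling, 912 and 543 after quantile normalization, and 1770 and 239 with the common median. Under each of these scalings 12 of the 13 members had a positive log2 fold change. The exception was the Egr3 probe set that was negative with the group alone.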

How the data were processed

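Expression was measured on 6 Affymetrix Mouse430_2 arrays, 3 of Ly6G+ DC and 3 of Ly6G- DC, from 200 ng of total RNA each, per the labels' protocols. The deposited values are linear signal intensities per probe set, which the values show to be scaled to a 2% trimmed mean of 250.0 on each array. Affymetrix Expression Console 2.0, MAS5 and GCOS are named in the submitters' processing notes, and their settings are not given in the sources used here. Values of dim probe sets are noisy under MAS5. Detection calls were not analysed here.

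From these values log2(signal + 16) was computed, which understates fold changes of dim genes. Probe sets above their array's 40th percentile on at least 3 arrays were kept without the 64 control probe sets (28254). Groups were compared by limma 3.58.1 in R 4.3.3 (lmFit, eBayes with intensity trend, the group alone) with Benjamini-Hochberg adjustment over all kept probe sets, a step tested on simulated data. The number of arrays limits the precision. Sides of the hybridization controls were set at the widest gap of their mean log2 signal. List genes were taken by their brightest kept probe set. Where counts of list genes stand beside counts of all probe sets, the units differ, as a gene can have several probe sets. Text names all members, up to 4 genes per list by smallest unadjusted p under 0.05 or else the 2 brightest, and the sort genes. The members and lists were chosen with earlier results of these data known. Alternatives were the normalization, pseudocount, filter, variance model, blocks and leaving out each array.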

Additional observations from a re-analysis of the deposited data

How the results depend on the processing

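Every normalization, pseudocount, filter and variance model tried left 0 members past an adjusted p of 0.05 by limma, and Egr1 kept a log2 fold change of 1.38 to 1.99 under all settings. The replicate block gave 19 calls of all probe sets, 1 of them the member Egr1 (limma's adjusted p = 0.0407). Deviations of same-numbered arrays had correlations of 0.52, 0.263 and -0.043, and not every array correlated best with its own number. Arrays numbered 1 shared a hybridization control side, as did those numbered 2, while those numbered 3 did not. The correlations therefore cannot tell pairing from side. The labels do not say which samples shared a culture, so the main fit had no such block. The array name block gave 21 calls and 1 member. Blocking on hybridization control side and array name together moved the median of the members to 0.52. Scaling to a common median moved it to 1.15, and the values within the high hybridization control side to 0.55. Chosen after seeing the data, 1 probe set per gene gave 9 calls with the control side blocked and 19 with the array name, each with 1 member, Egr1 (0.0416 and 0.0153). Leaving out 1 array gave 0 to 24 calls of all probe sets, 0 members called, and member medians of 0.55 to 0.96. Junb turned to -0.17 with the side block (by probe set and by gene), to -0.12 and -0.22 within the low and high sides, and ranged from -0.38 (without Ly6G+ DC 1) to 0.72 when 1 array was left out. Fosb ranged from -0.27 to 0.30 when 1 array was left out and was below 0 when number 1 of either group or Ly6G+ DC 2 was missing, and it turned to -0.051 within the high side and to -0.36 within the other array name. Egr3 (1421486_at) ranged from -1.03 to 0.071, the latter without Ly6G- DC 3, and turned to 0.56 within the array name of number 1. With the replicate block, 2 genes of the MAP kinase cascade were higher and 1 lower at an unadjusted p under 0.05 by limma. In that fit 1608 and 1346 of all 28254 probe sets were. The causes were not tested. The 3 arrays per group and the low signals of Fosb and Egr3 (1421486_at) limit what could be detected.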
